A study of Mus musculus with 6 samples.

Results

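Connective tissue growth factor (Ctgf) and 8 genes of the same 2 signaling systems were examined in kidneys of iron-deficient and iron-sufficient mouse pups. The 9 genes are Ctgf and Cyr61, which encode matricellular proteins of the CCN family, the ligands Tgfb1, Tgfb2 and Tgfb3, their receptor Tgfbr2, and Ankrd1, Amotl2 and Thbs1, which are known targets of YAP or of TGF-beta. They were picked by symbol from the 24422 gene symbols in the count tables, and 9 of the 9 were among the 15145 genes with enough reads to be tested. The 9 were chosen with the measured values of these kidneys in view, starting from the high level of Ctgf in iron-deficient kidneys. Their differences between groups are therefore given as a description, without p-values. Counts of the 9 past a threshold are given beside the shares of all tested genes, and nothing is read from them.

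All 6 kidneys came from wild type C57BL/6 pups labelled as 15 days old. The control group (n = 3) was born to dams on a diet with 220 ppm iron, and the iron-deficient group (FeD, n = 3) to dams on a synthetic diet with 2 to 6 ppm iron. The dams ate their diet before mating, through pregnancy and after birth, so the pups were exposed before and after birth. No genetic lesion separates the groups. The labels count the 3 samples of a group as separate animals, but how many litters they came from is not given in the sources used here, so litter and diet cannot be told apart. RNA was taken from kidney tissue in bulk, in which fewer cells of a type and less RNA per cell cannot be told apart.

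TGF-beta is secreted in a latent complex and is released by integrins, proteases or thrombospondin. The free ligand binds the type II receptor, which recruits the type I receptor, and the pair phosphorylates SMAD2 and SMAD3, which enter the nucleus with SMAD4. YAP and TAZ are coactivators that the kinases of the Hippo pathway keep in the cytoplasm, and in the nucleus they act through TEAD factors. Ctgf is a textbook target of both systems, and in the kidney it is best known from glomeruli, interstitium and injured tubules. Only transcripts were measured here, so nothing below speaks of latent or active ligand, of SMAD phosphorylation or of the place of YAP in the cell.

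TEAD factors bind DNA at the letters GGAATG or their reverse complement CATTCC. Of the 9 genes, 6 had an entry in the RefSeq promoter table of the assembly GRCm38.p6; Ctgf, Tgfb3 and Thbs1 had none. The 250 bases before the start site were searched on both strands, and 3 of the 6 windows held the letters. These 3 are printed here because the transcripts behind them took 3 different courses, Cyr61 higher in FeD kidneys, Ankrd1 lower and Amotl2 at overlapping levels. Each runs 5′ to 3′ on the strand of its gene, with the match in capitals. The Cyr61 window is chr3:145649986-145650235 on the minus strand, the Ankrd1 window chr19:36119845-36120094 on the minus strand, and the Amotl2 window chr9:102717554-102717803 on the plus strand.
Cyr61: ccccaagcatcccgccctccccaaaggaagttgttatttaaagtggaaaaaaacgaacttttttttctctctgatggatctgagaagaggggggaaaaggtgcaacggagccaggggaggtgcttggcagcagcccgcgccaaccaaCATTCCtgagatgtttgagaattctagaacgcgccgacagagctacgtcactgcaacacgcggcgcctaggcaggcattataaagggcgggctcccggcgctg
Ankrd1: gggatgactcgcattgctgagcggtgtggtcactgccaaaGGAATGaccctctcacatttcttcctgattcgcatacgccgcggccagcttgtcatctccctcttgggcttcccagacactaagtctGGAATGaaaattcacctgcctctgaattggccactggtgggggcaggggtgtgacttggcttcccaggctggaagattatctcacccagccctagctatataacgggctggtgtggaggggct
Amotl2: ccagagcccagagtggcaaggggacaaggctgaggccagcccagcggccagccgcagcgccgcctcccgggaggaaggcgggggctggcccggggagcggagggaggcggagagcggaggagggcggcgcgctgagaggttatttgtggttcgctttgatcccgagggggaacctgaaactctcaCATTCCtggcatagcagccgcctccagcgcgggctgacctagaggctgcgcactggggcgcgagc

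The match began 103 bases before the start site in Cyr61 and 65 bases before it in Amotl2. Ankrd1 held 2 matches, at 210 and 123 bases. Among all 32536 windows of the same length in the table, 12.6% held GGAATG on either strand, so the letters are common and mark no proven site. The short SMAD motif CAGAC, on either strand, was found 2 times each in the windows of Tgfb2 and Ankrd1 and 1 time in that of Tgfbr2, and 42.2% of all windows held it. One of the CAGAC matches of Ankrd1 shares a base with its nearer GGAATG. The AP-1 letters TGANTCA (6.73% of all windows) and the CArG box that SRF binds (1.48%) were absent from these 6 windows.

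Read totals were between 13732173 and 20853293 per kidney, so that a floor of 3 counts lay between 0.144 and 0.218 CPM (counts scaled to library size). Levels are given as normalized counts, which are counts scaled to a common library size, and means are ± SD with n = 3. Markers of the labelled tissue were abundant, with summed proximal tubule markers between 58364 and 142364 normalized counts. FeD kidney 2 stood apart in 1 respect: its 4 adrenal markers summed to 10464 normalized counts against 135 to 293 in the other 5 kidneys. Over all genes, FeD kidneys 2 and 3 differed from each other more than any other 2 kidneys of a group. Xist and Y-linked transcripts showed 2 female kidneys and 1 male kidney in the control group and 1 female and 2 male kidneys in the FeD group. Results of the 9 genes without FeD kidney 2, and with sex as a term in the fit, are given beside them.

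Ctgf was the gene of the 9 with the largest difference. It is a single gene at chr10:24315248-24318489 (mm9, plus strand). Control kidneys held 1932, 2146 and 2206 normalized counts and FeD kidneys 10174, 9039 and 8843. The FeD kidneys were close to each other, and the lowest of them was 4.01 times the highest control kidney. The mean rose from 2094 ± 144 to 9352 ± 719 normalized counts, which is 4.47-fold, or a log2 fold change of 2.16 with a standard error of 0.09. Ranked by size, this was number 330 of the 15145 log2 fold changes. Leaving out any kidney gave log2 fold changes between 2.10 and 2.21, with 2.20 without FeD kidney 2, and the fit with sex gave 2.12.

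Per kilobase of exon, Ctgf held 841 ± 57.9 normalized counts in control and 3756 ± 289 in FeD kidneys. Among the 13729 tested genes with an annotated length, that placed it between the 90.0th and the 91.0th percentile in control kidneys and between the 98.4th and the 98.7th in FeD kidneys. Of its exon bases, 22.9% are also covered by Gm15270, a gene annotated on the opposite strand that has no entry of its own in the count tables. The strand setting of the counting is not given in the sources used here, so reads of the 2 genes cannot be told apart over that stretch.

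Cyr61, a CCN family member and an immediate early gene induced by serum and by YAP, was also higher in FeD kidneys. It lies at chr3:145309935-145312949 (mm9, minus strand). Control kidneys held 455, 457 and 526 normalized counts and FeD kidneys 2084, 1275 and 1058. The groups did not overlap, but FeD kidney 1 stood above the other 2, and the FeD kidneys differed among themselves by 1.97-fold, against 1.15-fold for Ctgf. The mean went from 479 ± 40.2 to 1472 ± 540, a 3.07-fold difference and a log2 fold change of 1.62 with a standard error of 0.23. Without FeD kidney 1 it was 1.30, without FeD kidney 2 it was 1.73, and with sex as a term it was 1.45. FeD kidney 1 was the highest of the 3 for both CCN genes. The number of Ctgf reads per Cyr61 read was 4.38 ± 0.278 in control kidneys and 4.88, 7.09 and 8.36 in the 3 FeD kidneys, all above the control range of 4.19 to 4.70.

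The remaining CCN genes did not follow them. Wisp1, a member known as a WNT1-induced secreted protein, held 326, 367 and 335 normalized counts in control and 195, 205 and 312 in FeD kidneys. Its log2 fold change was -0.52 with an adjusted p of 0.041 (edgeR's quasi-likelihood test, Benjamini-Hochberg), a call that was lost on leaving out any kidney other than FeD kidney 3, with adjusted p between 0.00061 and 0.14 over the alternatives. Nov, the member often described as opposing Ctgf, held 45.5 ± 10.7 normalized counts in control kidneys and 48.0, 173 and 47.5 in FeD kidneys, so that its mean difference lay in FeD kidney 2, the kidney with the adrenal markers, and the gene did not pass (adjusted p 0.17 in edgeR's test at a log2 fold change of 0.94). Wisp2 and Wisp3 were too low to be tested. Counted per kilobase, Ctgf made up 72.4% ± 0.613 of the summed CCN transcripts in control kidneys and 82.6% ± 3.29 in FeD kidneys, while the sum itself went from 1161 ± 78.7 to 4561 ± 537 normalized counts per kilobase.

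**Figure D1:**
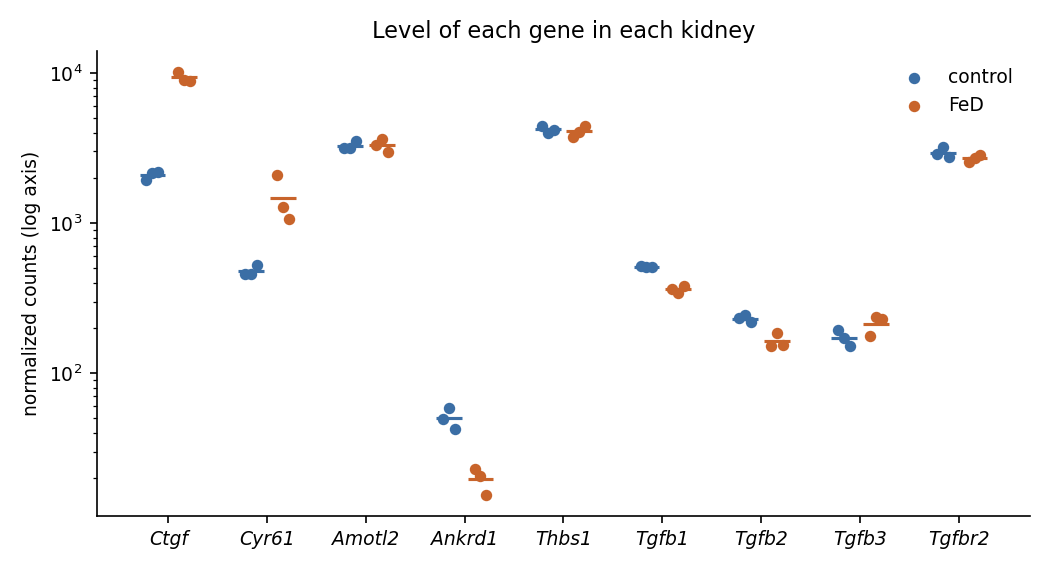
Normalized counts (log axis) of the 9 genes in each of 3 control and 3 FeD kidneys, with 1 point per kidney and a bar at the group mean. The groups stand apart, FeD higher, for Ctgf and Cyr61, stand apart, FeD lower, for Ankrd1, Tgfb1 and Tgfb2, and overlap for Amotl2, Thbs1, Tgfb3 and Tgfbr2.

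Ankrd1, which encodes a cardiac and muscle ankyrin repeat protein and is a standard YAP reporter gene, went the other way. It lies at chr19:36186455-36194334 (mm9, minus strand) and was the least abundant of the 9 genes, with 52, 53 and 48 raw counts in control and 23, 16 and 18 in FeD kidneys. Scaled to a common library size, these were 49.8, 58.6 and 42.7 against 23.0, 20.8 and 15.5 normalized counts. Each FeD kidney was below each control kidney. The mean fell from 50.4 ± 7.98 to 19.8 ± 3.83, a 2.55-fold lower level, with a log2 fold change of -1.35 and a standard error of 0.26. It was -1.37 without FeD kidney 2 and -1.36 with sex as a term. Skeletal and heart muscle markers, which share tissues with Ankrd1, summed to between 87.2 and 126 normalized counts in control kidneys and to 252, 80.5 and 50.9 in FeD kidneys. The high sum of FeD kidney 1 came mostly from skeletal muscle genes, with 112 normalized counts of Acta1. Of the 4 muscle markers tested, 1 fell, the cardiac myosin Myh6, from 31.1 ± 7.88 to 15.8 ± 1.54 (edgeR adjusted p 0.027), and that call was lost with DESeq2 (0.076) and without control kidney 2 (0.11), control kidney 3 (0.10) or FeD kidney 1 (0.087). The part of muscle RNA in the Ankrd1 values was not tested.

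Amotl2, an angiomotin-like scaffold that binds YAP and is itself a YAP target, did not separate the groups. It lies at chr9:102619002-102635748 (mm9, plus strand) and held 3159, 3153 and 3548 normalized counts in control and 3318, 3650 and 2988 in FeD kidneys. The FeD group included both the highest and the lowest value. The log2 fold change was 0.01 with a standard error of 0.09, and its sign depended on the setting, from -0.05 with sex as a term and -0.04 without FeD kidney 2 to 0.09 in the highest leave-one-out fit.

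Thbs1, the matricellular activator of latent TGF-beta, was likewise at overlapping levels. It lies at chr2:117937612-117952869 (mm9, plus strand), with 4456, 3968 and 4195 normalized counts in control and 3769, 4029 and 4463 in FeD kidneys. The log2 fold change was -0.04 with a standard error of 0.08, and it ranged from -0.10 to 0.03 on leaving out a kidney, with -0.01 both without FeD kidney 2 and with sex as a term. Control kidneys held 0.434, 0.541 and 0.526 Ctgf reads per Thbs1 read and FeD kidneys 2.70, 2.24 and 1.98, so Ctgf went from below Thbs1 to above it in read number. Thbs1 has the longer exons (6073 bases against 2490). Per kilobase of exon, Ctgf was above Thbs1 already in control kidneys (841 ± 57.9 against 693 ± 40.2 normalized counts).

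The other thrombospondins, tested as part of a list, moved apart from each other. Thbs2, a matricellular protein that limits vessel growth, rose from 491 ± 69.5 to 1128 ± 98.0 normalized counts, with a log2 fold change of 1.20 and an adjusted p of 0.00017 in edgeR's quasi-likelihood test (Benjamini-Hochberg). Thbs3 also rose, by a log2 fold change of 0.74 (adjusted p 0.0042). Thbs4, best known from tendon and muscle, fell from 108 ± 13.6 to 32.4 ± 4.74 (adjusted p 0.00037 at a log2 fold change of -1.74). Comp, a cartilage protein, did not pass (adjusted p 0.67 at a log2 fold change of 0.36). Per kilobase, Thbs1 remained the main transcript of the family, with 81.4% ± 1.84 of the sum in control and 71.3% ± 2.53 in FeD kidneys, and the part of Thbs2 went from 9.72% ± 1.13 to 20.1% ± 1.02.

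Of the ligands, Tgfb1 and Tgfb2 were lower in FeD kidneys. Tgfb1, the form most studied in kidney fibrosis, lies at chr7:26472021-26490096 (mm9, plus strand) and held 519, 513 and 508 normalized counts in control and 366, 341 and 379 in FeD kidneys. The control kidneys were nearly identical and each FeD kidney lay below them. The mean went from 513 ± 5.30 to 362 ± 19.0, 1.42-fold lower, with a log2 fold change of -0.50 and a standard error of 0.08. It was -0.44 without FeD kidney 2 and -0.48 with sex as a term.

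Tgfb2, a ligand prominent in kidney development and also listed among YAP targets, lies at chr1:188447065-188529871 (mm9, minus strand). Control kidneys held 233, 242 and 218 normalized counts and FeD kidneys 152, 186 and 154. The groups did not overlap, and FeD kidney 2 was the closest to the control range. The mean fell from 231 ± 12.3 to 164 ± 19.0, with a log2 fold change of -0.50 and a standard error of 0.12. Without FeD kidney 2 the log2 fold change was -0.57, and with sex as a term it was -0.50.

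Tgfb3 did not share that direction. It lies at chr12:87397694-87419991 (mm9, minus strand), with 194, 173 and 152 normalized counts in control and 176, 235 and 230 in FeD kidneys. FeD kidneys 2 and 3 were above the control range and FeD kidney 1 within it. The log2 fold change was 0.31 with a standard error of 0.15, reached 0.45 without FeD kidney 1, was 0.26 without FeD kidney 2 and was 0.38 with sex as a term.

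The mix of ligand transcripts was also not the same in the groups. Per kilobase, the 3 ligands summed to between 289 and 308 normalized counts in control and between 226 and 248 in FeD kidneys. Tgfb1 made up 65.8%, 66.5% and 68.8% of that sum in control and 63.2%, 55.3% and 59.7% in FeD kidneys. Tgfb3 made up 18.6%, 16.9% and 15.6% against 23.0%, 28.8% and 27.5%. Tgfb1 was thus the main ligand transcript in the 6 kidneys, with a lower part in each FeD kidney than in any control kidney, and Tgfb3 had a higher one. In control kidneys the levels of Tgfb2 and Tgfb3 overlapped (47.7 ± 2.53 and 51.1 ± 6.13 normalized counts per kilobase), and in FeD kidneys Tgfb3 was above Tgfb2 in each kidney (63.2 ± 9.71 against 33.8 ± 3.92). Ctgf reads per Tgfb1 read went from 4.08 ± 0.320 to 25.9 ± 2.29.

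**Figure D2:**
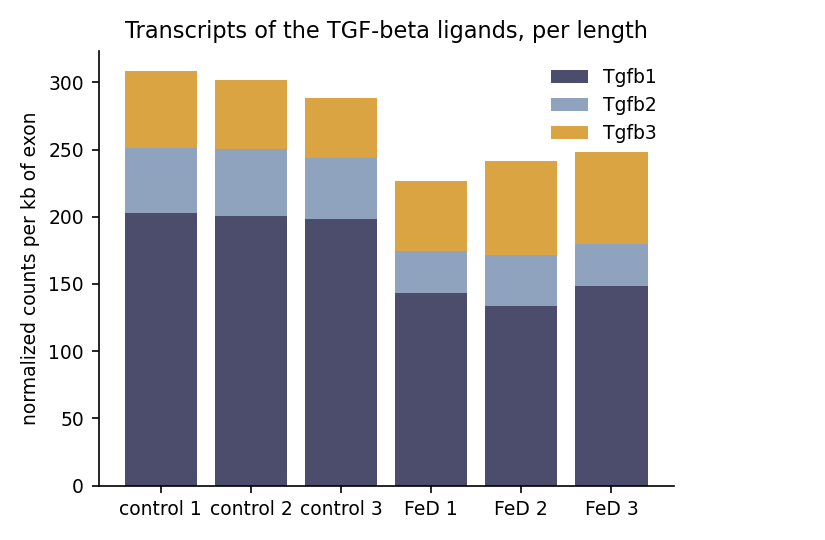
Normalized counts per kilobase of exon of Tgfb1, Tgfb2 and Tgfb3, stacked, in each control and FeD kidney. The summed bar is between 289 and 308 in control kidneys and between 226 and 248 in FeD kidneys, and Tgfb3 takes a larger part of it in each FeD kidney.

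Tgfbr2, the ligand-binding type II receptor, lies at chr9:115993415-116084383 (mm9, minus strand). Control kidneys held 2891, 3196 and 2773 normalized counts and FeD kidneys 2552, 2712 and 2853. FeD kidney 3 was within the control range and the other 2 just below it. The mean went from 2953 ± 218 to 2706 ± 151, with a log2 fold change of -0.13 and a standard error of 0.07. It was -0.11 without FeD kidney 2 and -0.08 with sex as a term.

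Ordered by level per kilobase, control kidneys ran Ctgf (841 ± 57.9), Thbs1 (693 ± 40.2), Amotl2 (523 ± 36.0), Tgfbr2 (365 ± 27.0), Cyr61 (236 ± 19.8), Tgfb1 (201 ± 2.07), Tgfb3, Tgfb2 and Ankrd1 (28.6 ± 4.52). Only the neighbours Tgfb3 and Tgfb2 had overlapping kidneys in that order. In FeD kidneys Ctgf (3756 ± 289) was above each other gene of the 9. Cyr61 (726 ± 266), with 522 to 1027 over the kidneys, overlapped Thbs1 (673 ± 57.7) and Amotl2 (528 ± 52.7).

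In edgeR's quasi-likelihood test with adjusted p under 0.05, 2 of the 9 genes were higher and 3 lower, where 22.4% of all tested genes were higher and 23.3% lower. With a 2-fold change as well, 2 were higher and 1 lower, against 4.34% and 5.69% of all tested genes. The groups did not overlap, FeD higher, for 2 genes and, FeD lower, for 3, against 28.4% and 29.7% of all tested genes. Since this contrast chose the genes, these counts are given for completeness and nothing is read from them. Leaving out control kidney 2 took Tgfb2 out of the lower count, and leaving out FeD kidney 1 brought Tgfb3 into the higher count.

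Genes tied to TGF-beta latency and activation, among them genes that hold the latent complex, anchor it or release the ligand, were tested as a list. Of its 20 genes without the 9, 7 rose, 7 fell and 6 did not pass. The median log2 fold change was -0.08, against -0.00 over all tested genes. A further gene of this kind had too few reads to be tested. For this list and those that follow, the shares of all tested genes that passed, 22.4% higher and 23.3% lower, are the background, and nothing is called particular to a list from its counts. Mmp14, a membrane-bound metalloprotease, rose by a log2 fold change of 1.00 (999.8 ± 59.2 to 2005 ± 121 normalized counts, adjusted p 5.0e-05 in edgeR's test). Itgb6, whose protein forms the epithelial integrin that activates latent TGF-beta, fell from 2430.4 ± 25.4 to 950 ± 198 (adjusted p 0.00018 at a log2 fold change of -1.35). The gelatinase gene Mmp9 fell from 97.5 ± 22.1 to 24.6 ± 8.04 (adjusted p 0.0010 at a log2 fold change of -2.00). Ltbp3, a latent TGF-beta binding protein, fell by 0.30 on the log2 scale (adjusted p 0.0032). Without control kidney 1, control kidney 2 or FeD kidney 1, 3 genes of the list fell in place of 7, and without control kidney 3 it was 4. Over all tested genes, 2757, 2618 and 3053 fell in the first 3 of these fits and 2623 in the last, in place of 3527.

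Among 19 genes of receptors, SMADs and their regulators, counted without Tgfbr2, 7 rose, 4 fell and 8 did not pass. The median log2 fold change was 0.02. The type I receptor Tgfbr1 rose from 1749 ± 41.9 to 2649 ± 278 normalized counts (adjusted p 0.00067 at a log2 fold change of 0.60, edgeR), and the coreceptor Tgfbr3 by 0.55 (adjusted p 0.00070). Smad4, the common partner of the receptor-regulated SMADs, rose by 0.56 (adjusted p 0.00050), and Smurf1, a ubiquitin ligase that turns over receptors and SMADs, by 0.64 (adjusted p 0.00017). Smad3, the SMAD most tied to Ctgf induction, fell by 0.36 on the log2 scale, from 1637 ± 98.6 to 1278 ± 57.7 (adjusted p 0.0035). Both directions occurred among receptors and among receptor-regulated SMADs: Smad2 rose by 0.42 (adjusted p 0.0018), and the coreceptor Eng fell by 0.51 on the log2 scale (adjusted p 0.0020). Smad2 and Eng are named after their values were seen.

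Genes often used as readouts of TGF-beta signaling included genes that passed in either direction: of 28 tested besides Ctgf and Thbs1, 8 rose, 9 fell and 11 did not pass, with a median log2 fold change of -0.05. Among the risers were Cdkn1a, the cell cycle inhibitor p21, from 429 ± 38.0 to 3071 ± 475 normalized counts (adjusted p 8.9e-06 at a log2 fold change of 2.84, edgeR), and Lox, the collagen cross-linking enzyme, from 1319 ± 93.4 to 6630 ± 2383 (2.33, adjusted p 0.00017). The matrix gene Col3a1 fell from 16690 ± 266 to 8077 ± 1138 (adjusted p 0.00021 at a log2 fold change of -1.05). Itgb6, named above, is also on this list.

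The published YAP and TAZ target signature was tested over 16 genes besides the 5 of its members described above. A further gene of the signature had too few reads to be tested. Of the 16, 3 rose, 1 fell and 12 did not pass, and the median log2 fold change was 0.02. The risers were F3, tissue factor (adjusted p 0.00048 at a log2 fold change of 0.93, edgeR), the receptor tyrosine kinase Axl (0.64, adjusted p 0.00020) and Crim1, a transmembrane regulator of growth factors (0.30, adjusted p 0.0064). Ptpn14, a phosphatase that restrains YAP, fell by 0.27 on the log2 scale (adjusted p 0.023, from 0.0078 to 0.098 over the alternatives), and this call was lost on leaving out control kidney 1, control kidney 2, FeD kidney 1 or FeD kidney 2. The 16 genes spanned log2 fold changes from -0.27 to 0.93.

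Of 32 Hippo pathway genes without Amotl2, 12 rose, 2 fell and 18 did not pass, with a median log2 fold change of 0.19. The changes were small. The adaptor Limd1 rose by 0.42 (2108 ± 34.7 to 2811 ± 58.5 normalized counts, adjusted p 0.00050, edgeR), Sav1, the scaffold of the Hippo kinases, by 0.38 (adjusted p 0.0011) and the kinase Lats1 by 0.39 (adjusted p 0.0017). Wwtr1, which encodes TAZ, rose by 0.36 (2255 ± 99.4 to 2894 ± 117, adjusted p 0.0020) and Tead1 by 0.46 (adjusted p 0.0028). Yap1 held 2306 ± 73.5 and 2319 ± 194 normalized counts, with a log2 fold change of 0.01, a standard error of 0.07 and an adjusted p of 0.93. Without control kidney 2 the count of risers was 7 in place of 12. In that fit 2401 of all 15394 tested genes rose, in place of 3397 of 15145.

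SRF and its cofactors of the MRTF family also drive Ctgf, Cyr61 and Ankrd1. Of 15 genes of that system, 3 rose, 5 fell and 7 did not pass, with a median log2 fold change of 0.04. Mkl2, which encodes an MRTF, rose from 897 ± 58.2 to 1512 ± 74.2 normalized counts (adjusted p 0.00017 at a log2 fold change of 0.75, edgeR), and the smooth muscle gene Tagln by 0.47 (adjusted p 0.00084). The calponins fell, Cnn1 from 127 ± 6.12 to 26.3 ± 13.4 (adjusted p 0.00070 at a log2 fold change of -2.31) and Cnn2 by 0.64 on the log2 scale (adjusted p 0.00093).

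The list counts were also taken without FeD kidney 2, a fit in which 3353 of all 15330 tested genes rose and 3190 fell. Risers and fallers were then 6 and 5 for latency and activation, and 6 and 4 for receptors, SMADs and their regulators. For the TGF-beta readouts they were 9 and 8. They were 4 and 1 for the YAP and TAZ signature, 4 and 5 for SRF and MRTF genes, and 12 and 0 for the Hippo pathway, where the fallers Nf2 and Ptpn14 no longer passed (edgeR adjusted p 0.098 and 0.085 in that fit). Nf2 is named here after its values were seen.

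**Figure D3:**
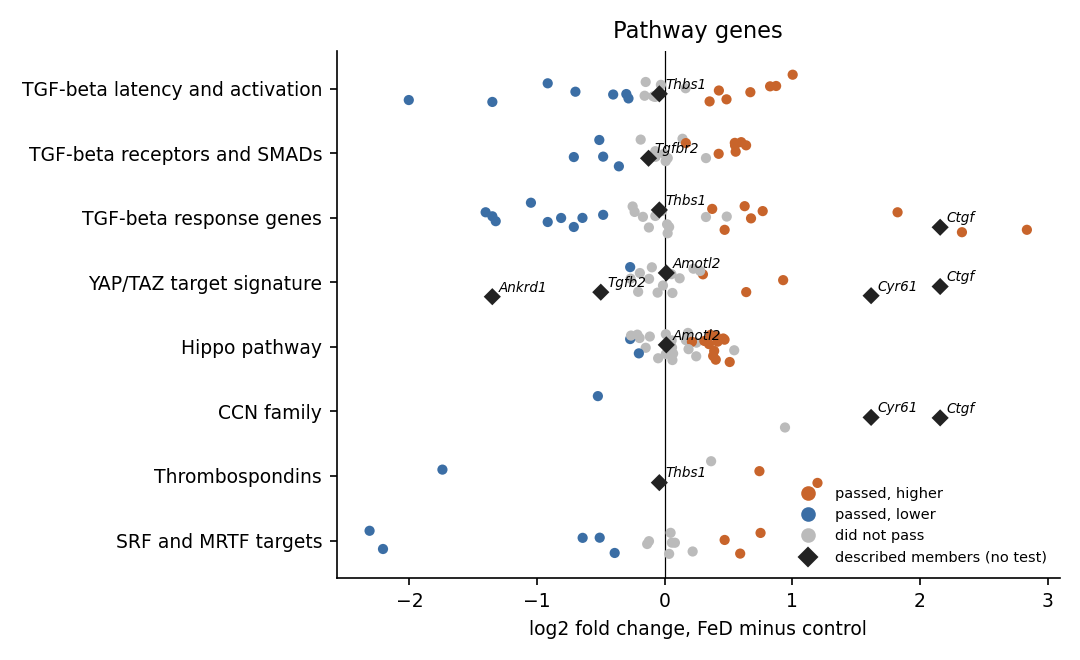
Log2 fold change, FeD minus control, of each tested gene of 8 pathway lists, coloured by whether it passed an adjusted p under 0.05 in edgeR's test and in which direction. Black diamonds mark the described genes, which are not coloured by the test. Genes of each list lie on both sides of 0.

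The 5 genes whose course over the 6 kidneys was most like that of Ctgf were taken from 12932 genes averaging 50 or more normalized counts, by the root mean square difference of log2 normalized counts centred on the control mean. They were Ddit4 (0.122), Ackr2 (0.137), Arg2 (0.160), Vnn1 (0.165) and Asic2 (0.181). Ddit4 encodes a stress-induced inhibitor of mTORC1, and it held 743 ± 60.7 normalized counts in control and 3090 ± 352 in FeD kidneys. Arg2, a mitochondrial arginase, held 477 ± 8.03 and 2101 ± 259. None of the 5 belongs to the lists above, and likeness over 6 kidneys in 2 groups rests mostly on the size of the difference between the groups.

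**Figure D4:**
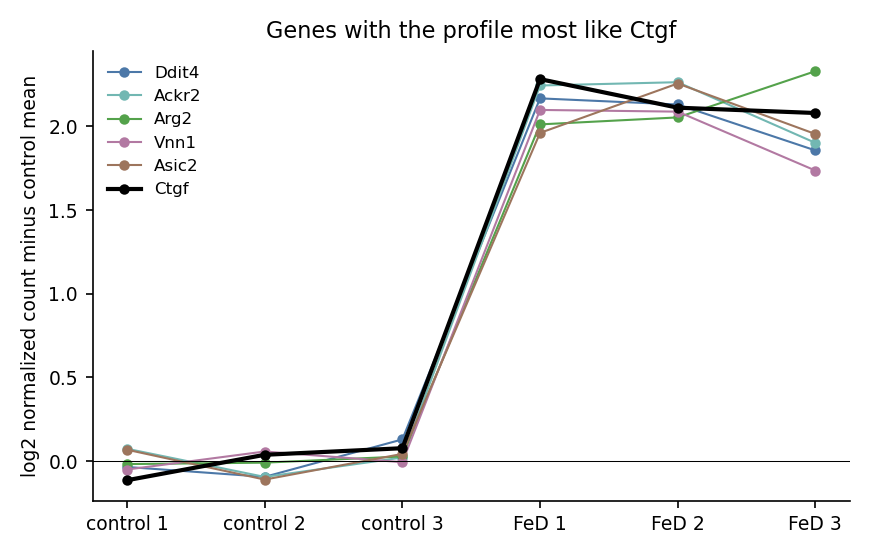
Log2 normalized count minus the control mean in each kidney for Ctgf (black) and the 5 genes with the most similar profile. The 6 lines lie near 0 in control kidneys and between 1.74 and 2.33 in FeD kidneys.

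Summed markers separated the groups for some of the cell types examined and overlapped for others. Endothelial markers summed to between 16416 and 16922 normalized counts in control and between 10801 and 13784 in FeD kidneys, and 6 of the 7 fell. Smooth muscle and pericyte markers summed to between 8533 and 9998 against 14517 to 17409, although 4 of the 7 fell and 2 rose, the riser Rgs5 carrying most of the sum in FeD kidneys (3354 ± 206 to 11130.3 ± 1607 normalized counts). Fibroblast and stroma markers overlapped in sum (15810 to 17085 and 14322 to 20644), with 4 of the 7 higher and 3 lower. Podocyte markers, from cells known for high Ctgf, overlapped in sum (13557 to 14651 and 11017 to 15419), with 1 of 6 higher. Proximal tubule markers were lower in sum (132701 to 142364 against 58364 to 65297) and 5 of the 6 fell. Slc34a1 carried the largest part of the sum in control kidneys (71821 ± 3243 to 15383 ± 2192 normalized counts). The 6 markers had log2 fold changes between -4.89 and 0.18, with a median of -0.47. Macrophage sums overlapped (2604 to 2873 and 2645 to 3153). Platelet sums did as well (253 to 342 and 244 to 270), platelets being a known carrier of Tgfb1. The part of these differences in the levels of the 9 genes was not tested.

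**Figure D5:**
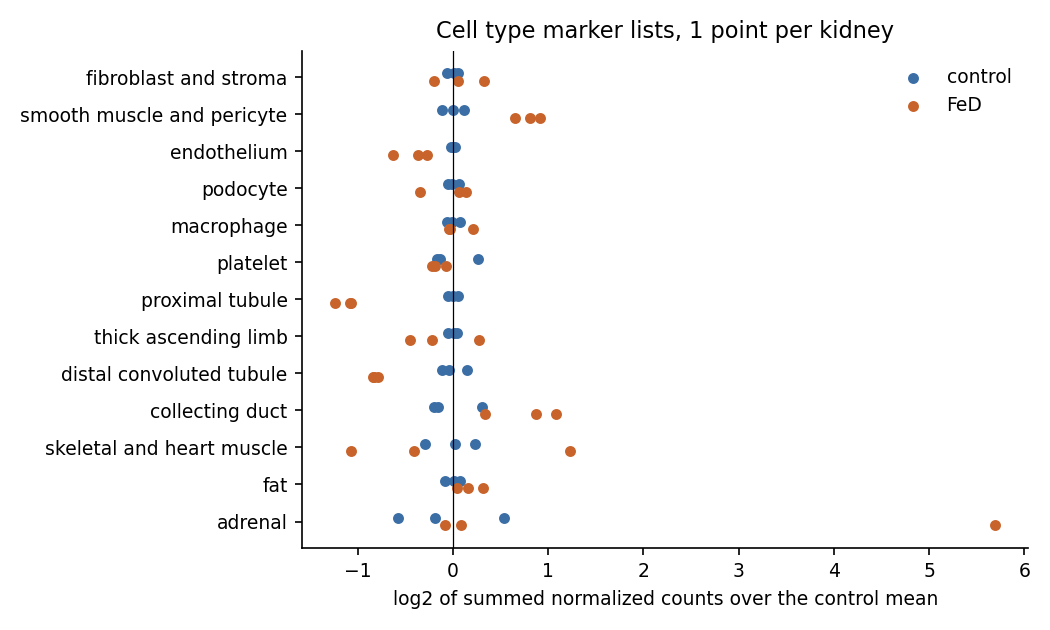
Log2 of the summed normalized counts of each cell type's marker list over its control mean, with 1 point per kidney. Proximal tubule, distal convoluted tubule and endothelial sums are below all control kidneys in the 3 FeD kidneys. Smooth muscle and collecting duct sums are above them. Of the 7 smooth muscle and pericyte markers, 4 were lower and 2 higher, and of the 5 collecting duct markers, 2 were lower and 3 higher. Of the 4 distal convoluted tubule markers, 2 passed as lower. FeD kidney 2 is alone in its adrenal sum.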

How the data were processed

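RNA was measured by RNA-seq in 3 control and 3 FeD kidneys. Per the labels and the study's methods, the authors prepared TruSeq libraries from polyadenylated RNA, trimmed reads with Trimmomatic, aligned them to mm9 with TopHat2 2.0.11 and deposited raw counts of reads per gene from HTSeq, with replicates kept apart. The annotation, counting mode and strand setting are not given in the sources used here. Groups and replicate numbers came from the sample labels, and whether the 3 samples of a group shared a litter is not given. The p-values set the difference between groups against the spread among these samples within a group, and do not speak for other litters.

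From the deposited counts, edgeR 4.0.16 in R 4.3.3 was used with filterByExpr, TMM, glmQLFit and glmQLFTest, with Benjamini-Hochberg adjustment over all 15145 tested genes and a threshold of 0.05. Standard errors are the log2 fold change divided by the square root of F. Normalized counts are counts scaled by TMM to the mean effective library size, and profiles used a prior of 0.5. The fit was tested on simulated data. Alternatives were DESeq2's size factors, library size alone, no filter, at least 10 counts in every kidney, DESeq2 1.42.0, a replicate block and each kidney left out in turn; sex as a term, read from Xist and Y-linked transcripts, was added after seeing the data. Replicate libraries differed by more than sampling noise (chi-square per degree of freedom 3.39 to 26.0). A floor of 3 counts covers counting error only.

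The 9 genes and the lists were chosen with earlier results of these data known. Genes named are the 9, the other CCN and thrombospondin genes, in each other list the 4 with the smallest edgeR p and an average of 50 or more normalized counts, with Yap1, Wwtr1, Tead1, Tgfbr1 and Smad3, the 5 profiles most like Ctgf, and Rgs5, Slc34a1, Nf2, Smad2, Eng, Acta1 and Myh6, named after their values were seen. Another gene that the rule names is not reported here. Genes on 2 lists count in both. Positions and exon lengths are from the mm9 GENCODE annotation, in which 90.7% of tested genes had a length. No window of 100 bases of the 9 genes recurs in another protein-coding gene. Promoters are from RefSeq, GRCm38.p6, read with Python 3.11.15.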

Additional observations from a re-analysis of the deposited data

How the results depend on the processing

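Over 13 alternatives, Ctgf had a log2 fold change between 2.10 and 2.21, and the counts of all tested genes and of the 9 genes past each threshold stayed within 1.5 times their value. Tgfb1 moved to -0.44 without FeD kidney 2. Counts of fallers in small lists left that range more often, where a change of 1 gene can be enough. The YAP and TAZ signature had 2 without a filter on low counts in place of 1. On leaving out a kidney, fallers ranged from 3 to 7 for TGF-beta latency and activation, from 0 to 3 for the YAP and TAZ signature, from 0 to 2 for the Hippo pathway and from 0 to 1 for the CCN family, and Hippo risers from 7 to 13; the cause was not tested. Leaving out a kidney also lowers the number of samples. Kidneys with the same number did not deviate together from their group means (correlations of -0.162, 0.0001 and -0.035). With 3 kidneys in a group such correlations are tied to each other, so they cannot decide whether the numbers pair kidneys. With the replicate block, Ctgf stayed at 2.16 and 11 Hippo genes rose in place of 12, while over all tested genes 3100 rose in place of 3397. Other scalings moved the median log2 fold change of all genes to no more than 0.01 from 0. Depth limits Ankrd1, with at most 53 counts in a kidney.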
